A study of Homo sapiens with 15 samples.

Results

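Retinoid metabolism was examined across 5 groups of lung fibroblasts and small cell lung cancer (SCLC) cells through 10 genes that import, convert, carry, sense or answer to vitamin A and its acid. These genes were DHRS3, RDH10, ALDH1A1, ALDH1A3, CYP26B1, STRA6, CRABP2, RARA, RARB and RARRES2, chosen by name and because DHRS3 was known to rise in the fibroblasts with either tumour partner. All 10 were among the 16382 genes listed for MRC5 cells, and 8 were among the 16076 listed for H196 cells, where ALDH1A1 and RARRES2 were not listed. The rise of DHRS3 in MRC5 cells chose the set, so it is described below with no test.

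MRC5 is a fibroblast line from fetal lung, H196 is an SCLC line of the non-neuroendocrine kind, and H69 is a neuroendocrine SCLC line. MRC5 cells were grown alone (MRC5_Mo), opposite H69 cells (MRC5_CoH69) or opposite H196 cells (MRC5_CoH196), and H196 cells were grown alone (H196_Mo) or opposite MRC5 cells (H196_Co). Partners were kept on either side of a porous transwell membrane for a week, and poly(A) RNA of the cells in the well was sequenced from 3 libraries per group, 15 in all, with no H69 library analysed here. No group carried an engineered allele or received a drug. Each cell type stands on 1 line. The methods name a different culture medium for MRC5 and for SCLC cells and do not name the medium of the co-cultures. In every comparison of co-culture with mono-culture, the partner and a possible change of medium therefore cannot be told apart. The replicates are called parallel, with nothing said of separate cultures, so p-values measure only the spread between these libraries, which may be technical.

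Cells take up retinol, hold it on binding proteins or store it as esters, and oxidise it in a pair of steps, first to retinaldehyde and then to all-trans retinoic acid. RDH10 drives the first step, DHRS3 runs it backwards by reducing retinaldehyde to retinol, enzymes of the ALDH1A family carry out the second step, and CYP26 enzymes degrade the acid. CRABP2 brings retinoic acid to the nuclear receptors RARA, RARB and RARG, which bind DNA with an RXR partner, and DHRS3, CYP26 genes, CRABP2 and RARB are textbook targets of the acid in many tissues.

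Each library held 16073597 to 19170560 counts, of which the 10 most abundant genes took 6.68% to 9.95%. All 9 fibroblast markers (COL1A1, DCN, PDGFRA and others) were above 1 CPM, counts scaled to library depth, in every MRC5 library, with summed levels of 26949 to 30000 CPM in MRC5_Mo, 30874 to 31883 in MRC5_CoH69 and 12887 to 13643 in MRC5_CoH196, against 2.05 to 3.15 in H196 libraries. The lower sum in MRC5_CoH196 came mostly from the collagen genes COL1A1 (mean 14800 CPM in MRC5_Mo and 4419 in MRC5_CoH196), COL1A2 (9459 and 5702) and COL3A1 (1354 and 281), and THY1 was also lower, while PDGFRB was higher (329 and 463) and DCN, LUM, PDGFRA and FAP overlapped. These are CPM of library totals, and after scaling by TMM, edgeR's correction for RNA composition, LUM and PDGFRA were also above MRC5_Mo in every MRC5_CoH196 library, and the means of DCN and FAP turned from lower to higher with overlap. A set of 195 genes at 20 CPM or more in every MRC5 library and under 0.5 CPM in H196_Mo summed to 44861 to 48422 CPM in MRC5_Mo and 46114 to 47194 in MRC5_CoH196. The 4 epithelial markers summed to 22.9 to 24.7 CPM in MRC5_Mo and 38.9 to 44.1 in MRC5_CoH196, mostly KRT19 (mean 22.1 and 38.8), against 0.747 to 1.90 in H196 libraries. The labels call H196 small cell lung cancer cells, and of 8 neuroendocrine markers only 2 reached 1 CPM in every H196 library, while INSM1 and GRP had no count. The same 8 markers, which would mark H69 RNA, summed to 0.576 to 1.07 CPM in MRC5_CoH69 and 0.755 to 1.12 CPM in MRC5_Mo, with no count of CHGA, INSM1 or GRP in either. A set of 95 genes at 20 CPM or more in H196 libraries and under 0.5 CPM in MRC5_Mo summed to 23.7 to 61.8 CPM in MRC5_CoH196, which was 0.301% to 0.785% of the mean sum in H196_Co, against 8.36 to 10.4 CPM in MRC5_CoH69 and 8.97 to 9.92 CPM in MRC5_Mo. In these bulk samples fewer cells of a kind and less RNA per cell cannot be told apart.

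DHRS3 (gene ID 9249, chr1:12567910-12631397, GRCh38.p13) encodes the short-chain dehydrogenase that returns retinaldehyde to retinol. Its counts were 128, 80 and 96 in the MRC5_Mo libraries, 400, 403 and 414 in MRC5_CoH69, and 444, 366 and 393 in MRC5_CoH196. Every co-cultured MRC5 library was above every mono-cultured one, as for 13.6% of all genes tested with H69 and 37.7% with H196, and the libraries with H69 and with H196 overlapped. In FPKM, fragments scaled to gene length and library depth, DHRS3 stood at 4.28 ± 0.85 (SD, n = 3) in MRC5_Mo, 15.9 ± 0.0907 in MRC5_CoH69 and 15.8 ± 1.89 in MRC5_CoH196. The log2 difference from mono-culture was 2.01 with H69 (standard error 0.11) and 2.14 with H196 (standard error 0.11), comparisons that share the MRC5_Mo libraries. Ranked by log2 difference among 12819 genes tested, DHRS3 was number 3 with H69 and number 215 with H196. Between the co-cultures DHRS3 was 0.13 higher on the log2 scale with H196, with a standard error of 0.09, and the sign turned to -0.01 when FPKM values were used in place of counts. On the FPKM scales used, the median of all genes in that comparison was -0.14 and -0.18.

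H196 cells carried DHRS3 at a level between those of mono-cultured and co-cultured fibroblasts, with no call between their own groups. Counts were 179, 246 and 250 in H196_Mo and 243, 197 and 207 in H196_Co. The groups overlapped, and FPKM were 9.30 ± 1.81 and 9.55 ± 1.32 (SD, n = 3). The log2 difference was 0.01, with a 95% interval of -0.24 to 0.26 and an adjusted p of 0.965 in edgeR's quasi-likelihood test. Across the 5 groups DHRS3 FPKM thus ran from MRC5_CoH69 and MRC5_CoH196, which overlapped, through H196_Co and H196_Mo, which also overlapped, down to MRC5_Mo, which lay below all other libraries. Groups that do not overlap were common between the lines, as 87.6% of genes had no overlap in CPM between MRC5_Mo and H196_Mo.

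The DNA before the start of DHRS3 is shown because that gene carried the pattern, and the one before RARB because it held the only receptor motif found among these genes. A binding motif for RAR and RXR is a direct repeat of a hexamer, here AGGTCA, its variant AGTTCA, the form GGGTCA or the form GGTTCA, with 5 bases (DR5) or 2 bases (DR2) between the copies, searched on both strands. Printed are the 250 bases before a transcription start in RefSeq on GRCh38.p14, read along the gene's strand, and capitals mark a DR5. The windows searched, here and over all genes, also took in the 50 bases after the start.
DHRS3, chr1:12618211-12618460, minus strand: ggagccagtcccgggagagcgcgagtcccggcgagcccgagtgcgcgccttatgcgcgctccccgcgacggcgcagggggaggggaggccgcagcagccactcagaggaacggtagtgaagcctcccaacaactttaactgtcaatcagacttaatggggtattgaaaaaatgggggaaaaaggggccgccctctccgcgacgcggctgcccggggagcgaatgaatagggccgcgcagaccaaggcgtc
RARB, chr3:25428013-25428262, plus strand: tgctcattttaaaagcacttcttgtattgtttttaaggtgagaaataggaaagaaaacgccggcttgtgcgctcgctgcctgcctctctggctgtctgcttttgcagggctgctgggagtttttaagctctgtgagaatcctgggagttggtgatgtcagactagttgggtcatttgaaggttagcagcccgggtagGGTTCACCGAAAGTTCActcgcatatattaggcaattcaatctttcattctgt
The repeat at RARB, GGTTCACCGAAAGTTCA, lies 53 to 37 bases before that start. Windows were at hand for 9 of the 10 genes, 20 windows in all, and this was the 1 window with a DR5 or DR2, among them 3 windows of DHRS3 with none. Of 35116 such windows over all genes, 31 (0.0883%) held a DR5 and 14 (0.0399%) a DR2, so both are rare at this length and spelling, and a window without one says nothing of sites elsewhere.

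**Figure D1:**
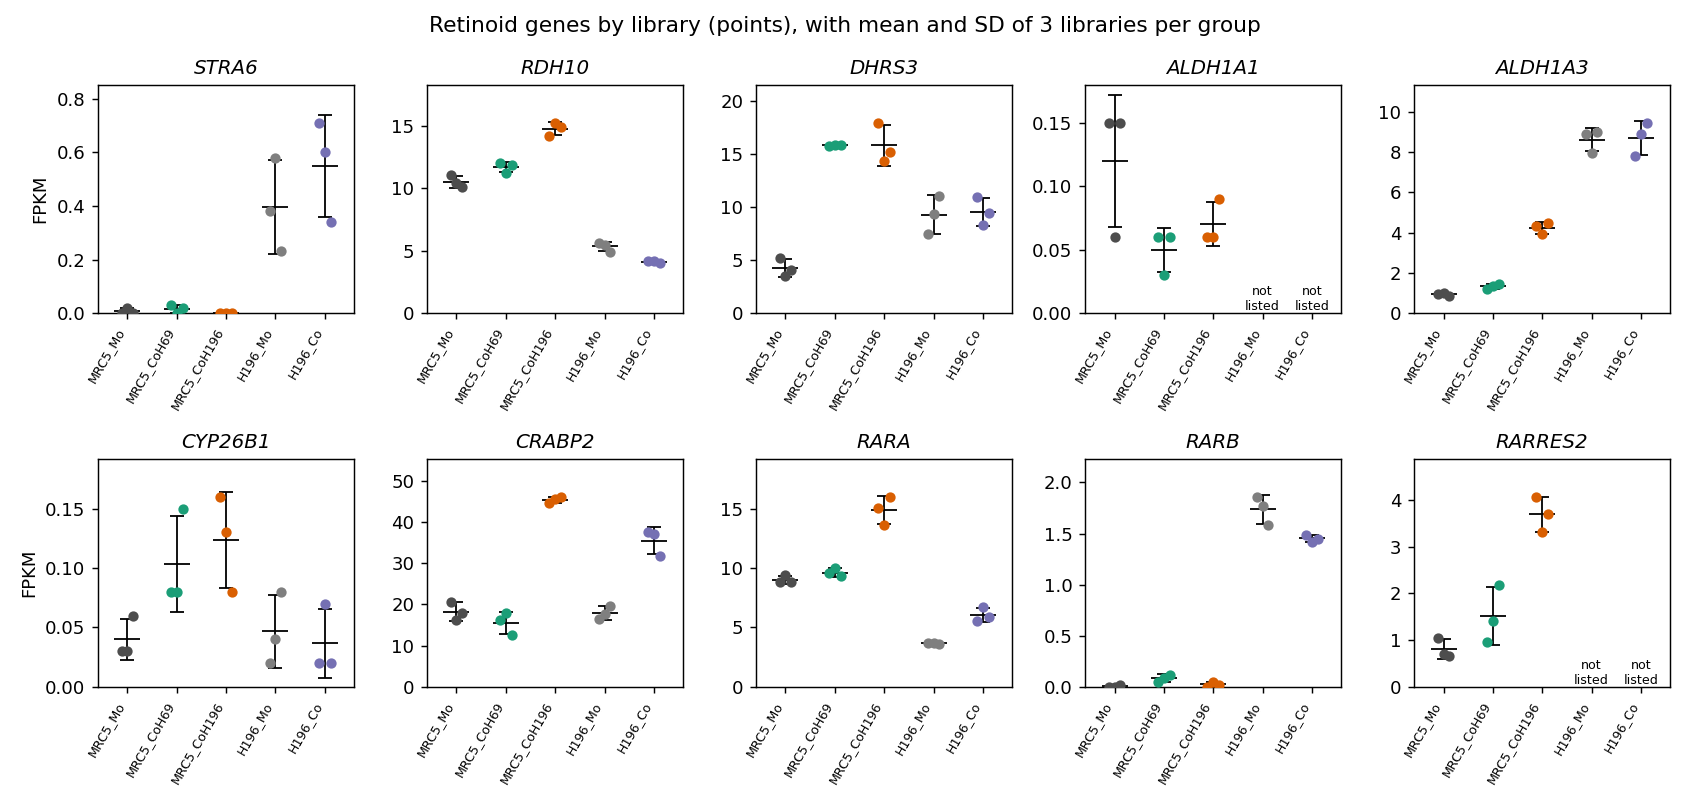
FPKM of each of the 10 retinoid genes (y axes, linear and from 0, each gene with its own scale) in every library of the 5 groups (x axes); points are libraries, horizontal marks the mean and bars the SD of 3 libraries. DHRS3 rises from 4.28 in MRC5_Mo to 15.9 and 15.8 in the 2 MRC5 co-cultures. ALDH1A3, CRABP2, RARA and RARRES2 are higher in every MRC5_CoH196 library than in any MRC5_CoH69 library. ALDH1A3 is at 1.32 in MRC5_CoH69 against 0.937 in MRC5_Mo.

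The panels of FPKM by library show DHRS3 high in both MRC5 co-cultures. Calls below use edgeR over all genes of a table, with an adjusted p under 0.05 and an absolute log2 difference above 0.58. In MRC5_CoH69 against MRC5_Mo, 0 of the 5 other members that passed the filter on low counts were called, where 0.421% of all tested genes were called higher and 0.133% lower. Among those 5 genes, 3 had an unadjusted p under 0.05, and DESeq2 also called 0. In MRC5_CoH196 against MRC5_Mo, RDH10, ALDH1A3, CRABP2 and RARA were called higher, 4 of 4, where 17.2% of all genes tested were called higher and 14.7% lower. The remaining gene, RARRES2, passed the filter only through the MRC5_CoH196 libraries, so its difference from the other groups was partly fixed by the filter and it is left out of that count.

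STRA6 (gene ID 64220), the membrane receptor that takes up retinol from its plasma carrier, was at or near the counting limit in MRC5 cells. Its counts were 0, 1 and 0 in MRC5_Mo, 1, 0 and 1 in MRC5_CoH69, and 0 in all 3 libraries of MRC5_CoH196. A count of 0 allows up to 3 counts, or 0.156 to 0.162 CPM in an MRC5 library, a limit that covers counting error only. H196 cells had counts of 15, 25 and 10 in H196_Mo and 29, 23 and 14 in H196_Co, overlapping groups with a log2 difference of 0.47 (95% interval -0.22 to 1.15, adjusted p = 0.336, edgeR). Summed over 3 libraries, H196_Mo held 50 counts and MRC5_Mo 1, a ratio per library total of 55.3 with an exact 95% counting interval of 9.48 to 2227.

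RDH10 (gene ID 157506), the retinol dehydrogenase of the first oxidation step, was higher in fibroblasts with H196 and lower in H196 cells with MRC5. Counts were 763, 719 and 693 in MRC5_Mo, 841, 768 and 813 in MRC5_CoH69, and 1002, 1035 and 1050 in MRC5_CoH196. All 3 MRC5 groups were separated, and 35.9% of all genes also had every MRC5_CoH196 library above every MRC5_CoH69 one. FPKM were 10.5 ± 0.47, 11.7 ± 0.408 and 14.8 ± 0.52 (SD, n = 3). With H196 the log2 difference from mono-culture was 0.66 (standard error 0.05, adjusted p = 2.68e-11), and on FPKM scales it was 0.45 to 0.49, short of the 0.58 limit. The median of all genes on those scales lay at -0.13 and -0.18. With H69 RDH10 differed by 0.16 (adjusted p = 0.0675, 95% interval 0.05 to 0.27), and the step from MRC5_CoH69 to MRC5_CoH196 was 0.50 (adjusted p = 4.62e-09), both short of a call. In H196 cells RDH10 ran the other way, with counts of 334, 351 and 314 in H196_Mo and 262, 259 and 251 in H196_Co. These groups did not overlap, as for 37.2% of all genes tested in H196 cells. The log2 difference was -0.30 (standard error 0.09, adjusted p = 0.0223, edgeR), and it too was short of the 0.58 limit.

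Because DHRS3 and RDH10 catalyse opposite reactions, their FPKM were set against each other within each library. The log2 ratio of RDH10 to DHRS3 was 1.32 ± 0.24 (SD, n = 3) in MRC5_Mo, -0.44 ± 0.06 in MRC5_CoH69 and -0.09 ± 0.22 in MRC5_CoH196. RDH10 thus exceeded DHRS3 by 2.49-fold in mono-cultured fibroblasts, and every co-culture library had a lower ratio than every mono-culture library. In H196 cells the ratio was -0.78 ± 0.39 in H196_Mo and -1.21 ± 0.21 in H196_Co, with overlapping libraries. The ratio takes in the DHRS3 values that chose the set and is given with no test, and transcript levels do not measure the enzymes' activity.

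**Figure D2:**
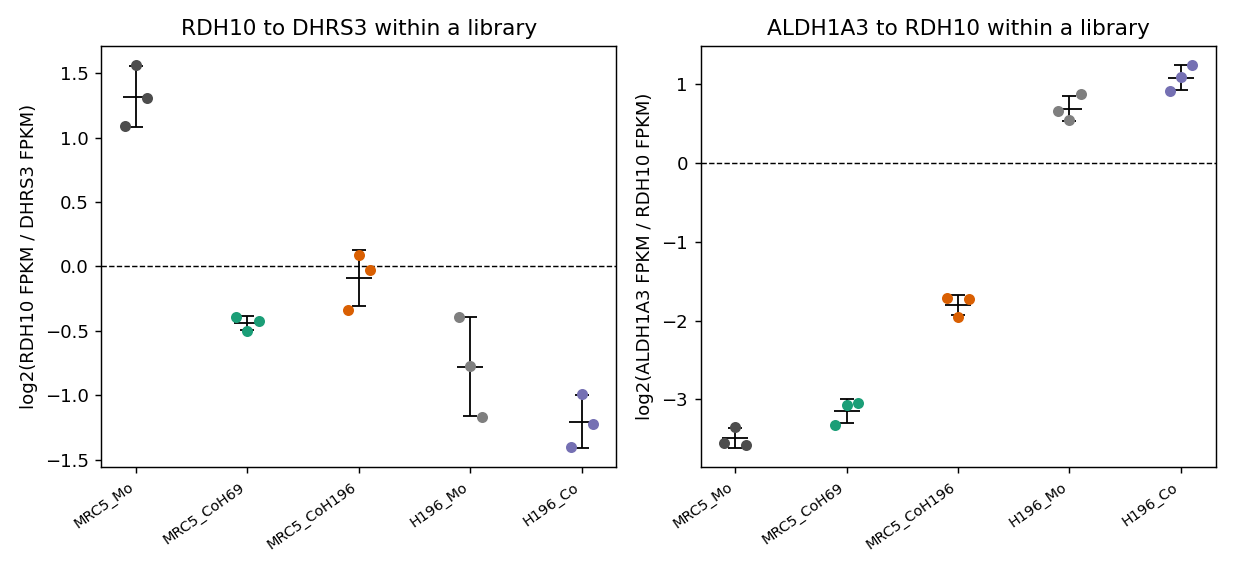
Log2 ratio of RDH10 to DHRS3 FPKM (left) and of ALDH1A3 to RDH10 FPKM (right) within each library, by group; points are libraries, marks and bars the mean and SD of 3, and the dashed line is a ratio of 1. The left ratio falls from 1.32 in MRC5_Mo to -0.44 in MRC5_CoH69 and -0.09 in MRC5_CoH196, and the right ratio runs from -3.49 in MRC5_Mo to 1.08 in H196_Co.

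ALDH1A3 (gene ID 220, chr15:100861924-100916626), which makes retinoic acid from retinaldehyde, rose in fibroblasts with H196. Counts were 55, 61 and 48 in MRC5_Mo, 73, 78 and 85 in MRC5_CoH69, and 260, 231 and 272 in MRC5_CoH196. The 3 groups did not overlap, and FPKM were 0.937 ± 0.085, 1.32 ± 0.116 and 4.25 ± 0.287 (SD, n = 3). Of all genes tested, 37.7% had every MRC5_CoH196 library above every MRC5_Mo one, and 35.9% above every MRC5_CoH69 one. For MRC5_CoH69 above MRC5_Mo the share was 13.6%. The same shares stand beside the MRC5 separations of CRABP2, RARA and RARRES2 below. The log2 difference with H196 was 2.37 (standard error 0.12, adjusted p = 3.95e-15), a 5.18-fold rise. With H69 it was 0.53 (standard error 0.15, adjusted p = 0.0267), which missed the 0.58 limit and passed it at 0.59 and 0.61 when MRC5_CoH69 replicate 1 or MRC5_Mo replicate 2 was left out. The difference between the co-cultures was itself called, at 1.84 (adjusted p = 1.99e-13, edgeR).

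H196 cells held more ALDH1A3 per gene length than fibroblasts in any condition, with no call between their own groups. Counts were 453, 442 and 494 in H196_Mo and 428, 474 and 507 in H196_Co, overlapping groups at 8.63 ± 0.556 and 8.72 ± 0.843 FPKM. The log2 difference was 0.09 (95% interval -0.09 to 0.27, adjusted p = 0.505, edgeR). The log2 ratio of ALDH1A3 to RDH10, the enzymes of the second and the first step, was -3.49 ± 0.13 in MRC5_Mo, -3.15 ± 0.15 in MRC5_CoH69, -1.80 ± 0.13 in MRC5_CoH196, 0.69 ± 0.16 in H196_Mo and 1.08 ± 0.16 in H196_Co (SD, n = 3). ALDH1A3 in MRC5_CoH196 averaged 13.4 CPM per library total. The genes chosen above for H196 RNA summed there to at most 0.785% of their mean in H196_Co, and that share of ALDH1A3 in H196_Co is 0.217 CPM. Those genes were chosen for low levels in MRC5_Mo, so their rise within fibroblasts would count too. The part of H196 RNA in the ALDH1A3 level was not tested.

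ALDH1A1 (gene ID 216, chr9:72900671-72953053), another retinaldehyde dehydrogenase, was barely seen in fibroblasts. Counts were 5, 2 and 5 in MRC5_Mo, 2, 1 and 2 in MRC5_CoH69, and 2, 2 and 3 in MRC5_CoH196. The groups overlapped, and the exact permutation test gave p = 0.2 with H69 and p = 0.3 with H196 (two-sided, 3 libraries against 3, which cannot go below 0.1). ALDH1A2, the remaining enzyme of that family, had at most 3 counts in any MRC5 library and at most 9 in any H196 library, so ALDH1A3 was the family member with appreciable counts in both lines.

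CYP26B1 (gene ID 56603, chr2:72129238-72147862), which breaks down retinoic acid, stayed below the filter on low counts in both lines. Counts were 2, 2 and 4 in MRC5_Mo, 6, 6 and 12 in MRC5_CoH69, and 12, 9 and 6 in MRC5_CoH196. Both co-cultures lay above mono-culture in every library, by mean differences of 0.283 and 0.333 CPM of library totals, and the exact permutation test gave its smallest p, 0.1, for each (two-sided, n = 3). H196 cells had 1, 3 and 5 counts in H196_Mo and 1, 5 and 1 in H196_Co, overlapping groups. CYP26A1 and CYP26C1, its relatives, had at most 4 counts in any library where they were listed.

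CRABP2 (gene ID 1382, chr1:156689676-156705784), which delivers retinoic acid to the nucleus, rose in both partners of the MRC5 and H196 co-culture. Counts were 270, 209 and 231 in MRC5_Mo, 210, 229 and 163 in MRC5_CoH69, and 595, 578 and 607 in MRC5_CoH196. The libraries with H69 overlapped mono-culture, and those with H196 lay far above both, at 45.4 ± 0.799 FPKM against 18.2 ± 2.27 in MRC5_Mo and 15.5 ± 2.67 in MRC5_CoH69 (SD, n = 3). The log2 difference was 1.48 with H196 (standard error 0.09, adjusted p = 1.70e-13) and -0.23 with H69 (adjusted p = 0.226), and the co-cultures differed by 1.71 (adjusted p = 2.20e-14, edgeR).

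In H196 cells CRABP2 counts were 180, 217 and 237 in H196_Mo and 447, 434 and 378 in H196_Co. The groups did not overlap, as for 37.2% of all genes tested in H196 cells, and FPKM were 18.0 ± 1.67 and 35.5 ± 3.25 (SD, n = 3). CRABP2 was 1.06 log2 units higher in H196_Co than in H196_Mo (standard error 0.10, adjusted p = 2.71e-07, edgeR). Among the 6 members tested there other than DHRS3, CRABP2 and RARA were the 2 called, both higher. Of all tested genes, 3.26% were called higher and 0.601% lower. Mono-cultured MRC5 and H196 cells had overlapping CRABP2 FPKM, and in the joint fit on counts MRC5_Mo was 0.46 log2 units higher (adjusted p = 0.000588, edgeR), short of the 0.58 limit.

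RARA (gene ID 5914, chr17:40306183-40357767), the broadly expressed retinoic acid receptor, was called, like CRABP2, in MRC5_CoH196 against both other MRC5 groups and in H196_Co against H196_Mo. Counts were 509, 545 and 505 in MRC5_Mo, 554, 572 and 533 in MRC5_CoH69, and 882, 772 and 937 in MRC5_CoH196. The MRC5_CoH69 and MRC5_Mo libraries overlapped once scaled to depth, and every MRC5_CoH196 library was above both, with FPKM of 9.04 ± 0.338, 9.63 ± 0.367 and 14.9 ± 1.2 (SD, n = 3). RARA differed from mono-culture by 0.89 with H196 (standard error 0.06, adjusted p = 5.26e-12) and 0.10 with H69 (95% interval -0.04 to 0.24, adjusted p = 0.463), and the co-cultures differed by 0.79 (adjusted p = 5.17e-11, edgeR), or by 0.578 on log2(FPKM + 1), just under the limit. The median of all genes between the co-cultures was -0.14 on that scale. H196 cells had counts of 184, 199 and 193 in H196_Mo and 296, 345 and 307 in H196_Co. These groups did not overlap, as for 37.2% of all genes tested in H196 cells. The RARA rise there was 0.79 in log2 units (SE 0.10, adjusted p = 7.47e-06, edgeR), from 3.70 ± 0.052 to 6.06 ± 0.571 FPKM.

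Relative to RARG, the receptor gene with the higher level in most groups, RARA gained ground in the same libraries. The log2 ratio of RARA to RARG FPKM was -0.75 ± 0.13 in MRC5_Mo, -0.81 ± 0.03 in MRC5_CoH69 and 0.22 ± 0.14 in MRC5_CoH196, so RARA was the more abundant of the pair in MRC5_CoH196 alone of the 5 groups. In H196 cells the ratio went from -2.62 ± 0.03 in H196_Mo to -1.68 ± 0.18 in H196_Co (SD, n = 3).

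RARB (gene ID 5915, chr3:24687919-25597932), the receptor gene with the DR5 printed above, was detected in every H196 library and had few or no counts in fibroblasts. Counts were 85, 88 and 78 in H196_Mo and 69, 68 and 70 in H196_Co. No library of the co-culture reached the lowest of mono-culture, and groups did not overlap for 37.2% of all genes tested in H196 cells. The RARB difference on the log2 scale was -0.21 (95% interval -0.51 to 0.09, adjusted p = 0.317, edgeR). In fibroblasts the counts were 0, 0 and 1 in MRC5_Mo, 2, 4 and 6 in MRC5_CoH69, and 0, 2 and 1 in MRC5_CoH196. The MRC5_CoH69 libraries were above those of MRC5_Mo, with an exact permutation p of 0.1 (two-sided, n = 3), the smallest possible, and those of MRC5_CoH196 overlapped both. Summed over 3 libraries, RARB had 251 counts in H196_Mo and 1 in MRC5_Mo, a ratio per library total of 278 with an exact 95% counting interval of 49.4 to 11009.

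RARRES2 (gene ID 5919, chr7:150338317-150341685) encodes chemerin, a secreted chemoattractant named for its response to a retinoid in skin. Counts were low throughout, at 8, 4 and 5 in MRC5_Mo, 6, 9 and 14 in MRC5_CoH69, and 29, 20 and 24 in MRC5_CoH196. The MRC5_CoH196 libraries stood above the others and those of MRC5_CoH69 and MRC5_Mo overlapped, with FPKM of 0.803 ± 0.215, 1.52 ± 0.621 and 3.69 ± 0.375 (SD, n = 3). RARRES2 differed from mono-culture by 2.23 log2 units with H196 (standard error 0.36), and the co-cultures differed by 1.47, both given with no test because the gene passed the filter only through MRC5_CoH196. With H69 the difference was 0.77 (95% interval -0.14 to 1.67, adjusted p = 0.355, edgeR).

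**Figure D3:**
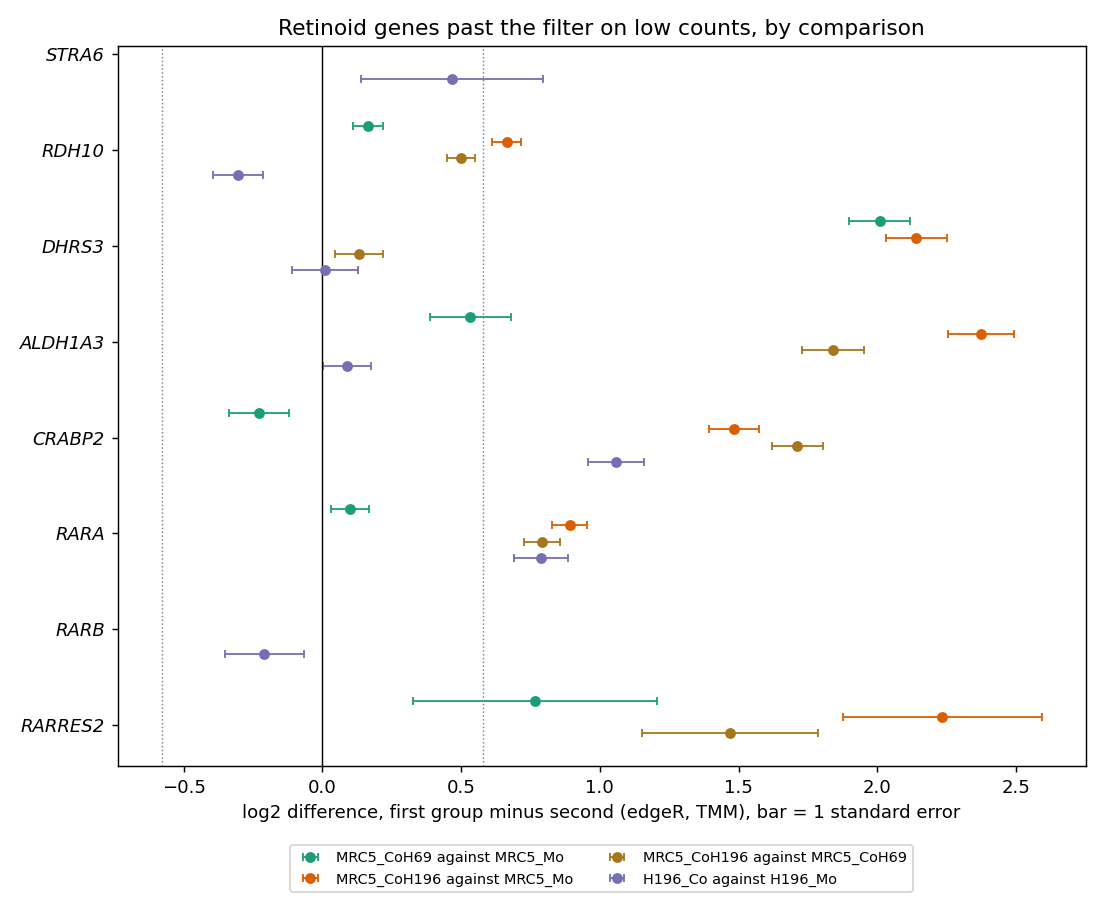
Log2 difference (x axis, edgeR on counts scaled by TMM, first group minus second) of the retinoid genes that passed the filter on low counts (y axis) in 4 comparisons by colour; bars are 1 standard error, dotted lines mark 0.58 on either side of 0. DHRS3 lies at 2.01 with H69 and 2.14 with H196, while ALDH1A3, CRABP2 and RARA lie beyond 0.58 with H196 and have no call with H69, and RARRES2, which passed the filter only through MRC5_CoH196, lies at 2.23 and 0.77.

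The difference between the partners was tested for each member. In MRC5_CoH196 against MRC5_CoH69, 3 of the 4 members tested apart from DHRS3 and RARRES2 were called higher (ALDH1A3, CRABP2 and RARA), where 15.2% of all tested genes were called higher and 13.1% lower. The plot of log2 differences sets these beside DHRS3, whose co-culture values lay together. The collagen genes and KRT19 moved with the same contrast, as given above, and their part in these differences was not tested. The sum over the 195 genes chosen for high levels in every MRC5 library and low H196_Mo levels overlapped between MRC5_Mo and MRC5_CoH196. It was higher in MRC5_CoH69, at 51701 to 52532 CPM. Genes under 20 CPM in any MRC5_CoH196 library were left out by that choice, so this sum cannot show their loss.

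Whether fibroblasts and tumour cells answered each other differently was tested in a joint fit of all 15 libraries over the 13585 genes that were listed in both tables and passed the filter, as the MRC5_CoH196 change from MRC5_Mo minus the H196_Co change from H196_Mo. Of the 6 members tested other than DHRS3, ALDH1A3 and RDH10 were called, both higher in the fibroblasts, where 12.1% of genes were called higher and 12.6% lower. RARB and STRA6, not called, entered the fit only through the H196 libraries and had few or no MRC5 counts. Their standard errors were 1.25 and 2.15, so these tests could say little. The difference in response was 2.26 log2 units for ALDH1A3 (standard error 0.15, adjusted p = 1.00e-12) and 0.94 for RDH10 (standard error 0.10, adjusted p = 6.38e-09). For CRABP2 it was 0.40 (adjusted p = 0.0266), short of the 0.58 limit, and for RARA it was 0.08 with a 95% interval of -0.16 to 0.32 (adjusted p = 0.608, edgeR). DHRS3 had a difference of 2.11 (standard error 0.18), given with no test.

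The mono-cultured lines were also compared, though line and medium cannot be told apart. In MRC5_Mo against H196_Mo, RARA and RDH10 were called higher in MRC5 and ALDH1A3 lower, 3 of the 4 members tested apart from DHRS3, RARB and STRA6, where 30.2% of all genes were called higher and 31.5% lower. RARA was higher in MRC5 by 1.73 log2 units (adjusted p = 3.47e-17) and RDH10 was 1.42 higher (adjusted p = 1.52e-17), while ALDH1A3 was lower, at -2.79 (adjusted p = 2.92e-19, edgeR). RARB and STRA6 entered the fit only through the H196 libraries, which partly fixed their difference, and are given by the counts and intervals above. DHRS3 was at -0.85 (standard error 0.14).

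The wider pathway was followed through a list of 57 other genes in 8 roles, of which 49 were listed in MRC5 cells and 35 tested there. With H69, 2 of the 35 were called higher and 0 lower, where 0.421% of all genes were called higher and 0.133% lower, and the median log2 difference was 0.02 against 0.00 over all genes. The 2 were RARRES1, a membrane protein named for retinoid induction, and CYP1B1, a cytochrome P450 that can make retinoic acid. Of the 35, 14 had an unadjusted p under 0.05, and DESeq2 called 1.

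RARRES1 counts were 24, 23 and 14 in MRC5_Mo, 81, 47 and 79 in MRC5_CoH69, and 27, 34 and 29 in MRC5_CoH196. It was highest with H69, with a log2 rise of 1.76 (standard error 0.23, adjusted p = 1.48e-05), number 6 among 12819 genes, against 0.72 with H196 (adjusted p = 0.0209). The co-cultures differed by -1.05 (H196 minus H69, adjusted p = 0.000120, edgeR).

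CYP1B1 counts were 76, 75 and 74 in MRC5_Mo, 140, 130 and 172 in MRC5_CoH69, and 89, 108 and 77 in MRC5_CoH196. The MRC5_CoH69 libraries were above all others, with a log2 difference from mono-culture of 0.98 (standard error 0.14, adjusted p = 3.65e-05, edgeR). Of 14 tested genes of the retinoic acid responsive role, 11 were above 0 with H69, but RARRES1 alone was called. Their median was 0.19, against 0.00 over all genes. With H196, 9 of the same 14 were above 0, with a median of 0.43. There, 4 were called higher and 1 lower, where 17.2% and 14.7% of all genes were.

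With H196, 9 of the 35 were called higher and 4 lower, ALDH8A1 among the 9, shares to be read against the 17.2% and 14.7% of all genes, and the median log2 difference was 0.27 against 0.00 over all genes. In retinoic acid synthesis ALDH8A1, a dehydrogenase active on retinaldehyde, had counts of 7, 3 and 3 in MRC5_Mo and 23, 21 and 19 in MRC5_CoH196, a log2 difference of 2.40 given with no test, because it passed the filter only through MRC5_CoH196 and the filter partly fixed it. Among responsive genes the homeobox genes HOXA4 and HOXB4 rose by 1.76 and 1.43 (adjusted p = 1.73e-11 and 1.24e-14). Of the receptors RXRA, the dimer partner of RARA, rose by 0.66, and of the co-regulators NRIP1 rose by 0.80 and NCOA3 by 0.75.

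The members of the pathway that fell with H196 lay in retinol storage, in the oxidoreductases, among the carriers and among the responsive genes. They included LIPE, a lipase that can release retinol from its esters, at -0.70, RDH5, a retinol dehydrogenase, at -0.77, and FABP5, which carries retinoic acid to another receptor family, at -0.78 (adjusted p = 0.000738, 0.0165 and 5.53e-07, edgeR). FABP5 counts were 393, 451 and 366 in MRC5_Mo and 235, 240 and 154 in MRC5_CoH196, opposite in direction to CRABP2. In MRC5_CoH196 against MRC5_CoH69, 8 of the 35 were called higher and 4 lower, against 15.2% and 13.1% of all genes. The 8 include ALDH8A1 at 2.50, subject to the same filter, and HOXA4 at 1.43, HOXB4 at 1.36, NRIP1 at 0.69 and RXRA at 0.66, and the 4 include LIPE at -0.63 and FABP5 at -0.59.

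**Figure D4:**
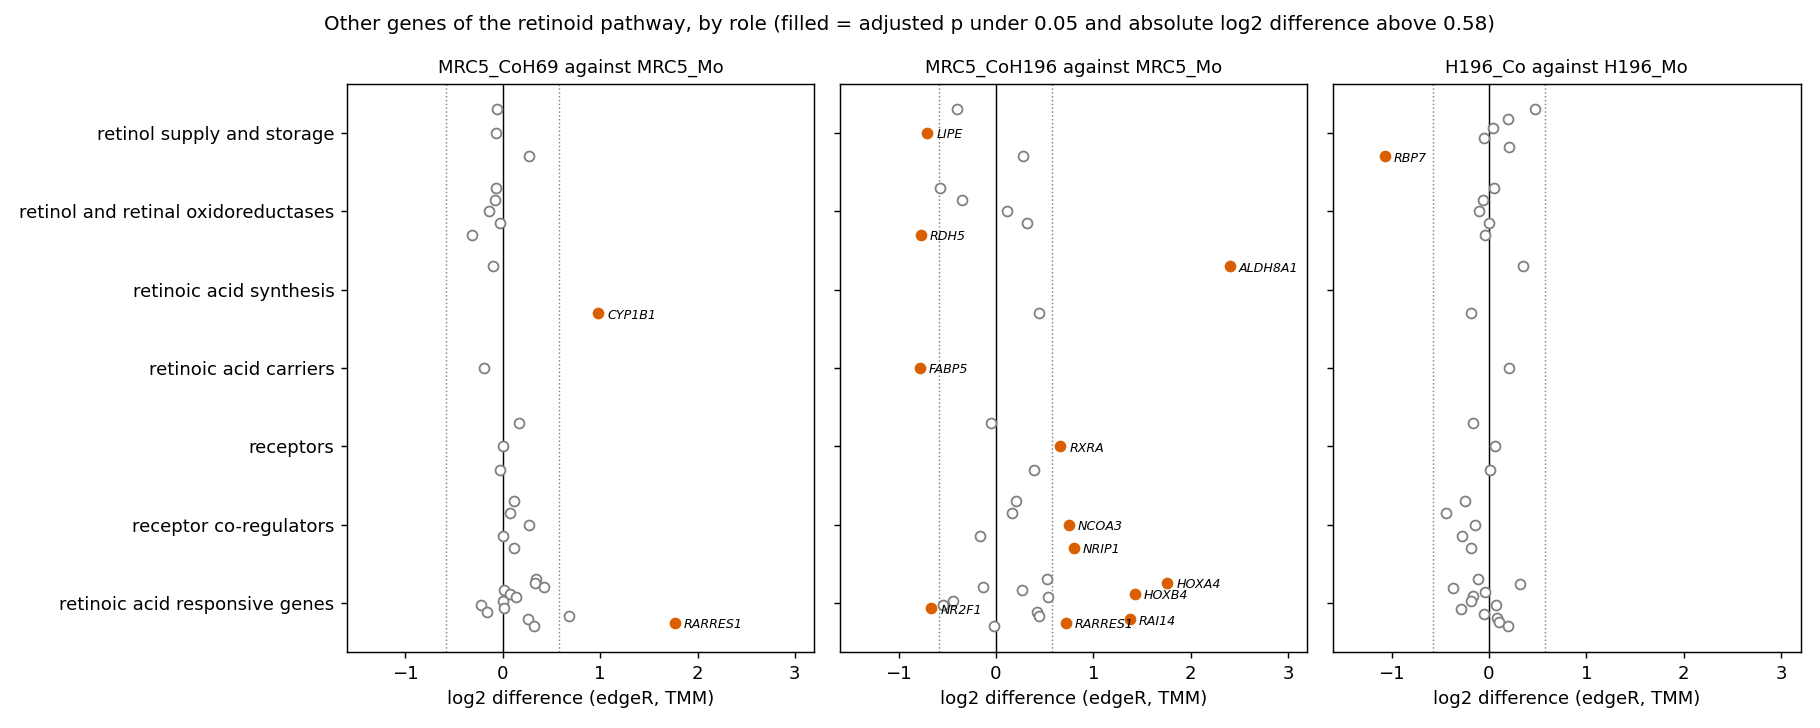
Log2 difference (x axes, edgeR on counts scaled by TMM) of the other pathway genes that passed the filter, by role (y axis), in 3 comparisons; filled and named points are called, dotted lines mark 0.58 on either side of 0, and the breakdown role has no gene past the filter. Of 35 genes tested in each comparison, 2 are called with H69, 13 in MRC5_CoH196 (1 of them not drawn) and 1 in H196_Co, and the 2 left panels share the MRC5_Mo libraries.

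In H196 cells 35 genes of the list were tested, 0 were called higher and 1 lower, where 3.26% of all genes were called higher and 0.601% lower. DESeq2 called 0, while 12 had an unadjusted p under 0.05. The 1 was RBP7, a cellular retinol-binding protein, with 15, 21 and 15 counts in H196_Mo and 10, 7 and 6 in H196_Co, at -1.07 (standard error 0.34). It passed the filter only through the H196_Mo libraries, so its difference was partly fixed by the filter, and the call was lost in 5 of 6 fits that left out a library. The plot of pathway genes by role shows the H196 panel gathered around 0, with a median of -0.04.

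By Pearson correlation of log2 CPM over the 9 MRC5 libraries, the genes most like DHRS3 among 9226 compared were ICAM1 (r = 0.979), IGFBP6 (0.979), SMAD3 (0.978), KSR1 (0.972) and COL4A2 (0.969). These libraries fall into 3 groups that set the correlations, so the values describe a shared step between mono- and co-culture. ICAM1 rose by 0.47 with H69 and 0.56 with H196 on the log2 scale, a smaller step than that of DHRS3. The names depend on the measure, since 0 of the 5 were among the closest by Spearman's rho or over all 15 libraries and 3 were with FPKM. Among the members RARRES2 had an r of 0.749 with DHRS3, RDH10 0.719, ALDH1A3 0.695, RARA 0.604 and CRABP2 0.439.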

How the data were processed

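The authors cleaned reads with SOAPnuke, and the submitters' processing notes name HISAT2 2.1.0, Bowtie2 2.3.4.3, RSEM 1.3.1 and GRCh38.p13. Values used were deposited expected counts (not normalized, 93.7% whole in the MRC5 table and 92.1% in the H196 table, rounded here) and deposited FPKM, computed by the authors per gene length and depth. The deposited tables also hold the authors' own fold changes, p-values and q-values, which were not used, and 30 per-library columns of TPM and normalized counts, not used either. Counts were filtered with filterByExpr, scaled by TMM (factors 0.916 to 1.05; "CPM" is on this scale unless stated) and tested with edgeR 4.0.16 (quasi-likelihood, two-sided, Benjamini-Hochberg over all 12819 genes of the MRC5 table, 12806 of the H196 table or 13585 in the joint fit) in R 4.3.3, with limma 3.58.1 on log2(FPKM + 1) or log2(FPKM + 0.1) and DESeq2 1.42.0 as alternatives. Scripts were tested on simulated data. Groups came from sample titles. The members, the pathway list and the tests were chosen with earlier results of these data known, and counts over them are descriptions. Named pathway genes are all that were called where at most 10 were, and otherwise the 2 largest changes per role, except that some genes of the lists are counted but not reported here by name or drawn. Replicates were checked to be separate libraries. A limit of 3 counts applies to zeros. No strand setting is given in the sources used here, so reads of overlapping or antisense genes cannot be told apart, and DHRS4 shares sequence with close copies. Promoter windows came from RefSeq.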

Additional observations from a re-analysis of the deposited data

Results flagged for a closer look

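RDH10 differed between the cell lines in its response to co-culture. The change in MRC5_CoH196 from MRC5_Mo minus the change in H196_Co from H196_Mo was 0.94 log2 units (standard error 0.10, adjusted p = 6.38e-09, edgeR), with all 3 MRC5_CoH196 libraries above and all 3 H196_Co libraries below their mono-cultures. ALDH1A3 differed in the same way by 2.26 (standard error 0.15, adjusted p = 1.00e-12, edgeR), with all 3 MRC5_CoH196 libraries above mono-culture and overlapping groups in H196 cells.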

How the results depend on the processing

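The sign of a member's difference turned in 4 cases, all of DHRS3 differences near 0: MRC5_CoH196 against MRC5_CoH69 was -0.0076 on log2(FPKM + 1) and -0.0084 on log2(FPKM + 0.1), and H196_Co against H196_Mo was -0.09 without H196_Co replicate 1 and -0.11 without H196_Mo replicate 1, in a range of -0.11 to 0.084 over fits without 1 library. FPKM scales moved the median of all genes in MRC5_CoH196 against MRC5_Mo to -0.13 (pseudocount 1) or -0.18 (pseudocount 0.1). In MRC5_CoH196 against MRC5_CoH69 the median was -0.14 or -0.18, and changes on these scales are read against that shift. For pathway genes with H196 the 13 calls became 29 with no fold limit, 4 with a limit of 1 and 8 on log2(FPKM + 1), and the members' 5, RARRES2 included, became 3 with a limit of 1. With H69, members called went from 0 to 1 with no fold limit, and from 0 to 1 over fits without 1 library, and pathway calls from 2 to 8 with no limit and to 1 with DESeq2, a limit of 1 or log2(FPKM + 1). Between the co-cultures the members' 4 calls, RARRES2 included, ranged from 3 to 5, with RARA at 0.578 on log2(FPKM + 1), under the limit, and the 12 pathway calls became 28 with no limit and 5 with a limit of 1. In H196 cells the members' 2 calls became 1 with a limit of 1, and the 1 pathway call became 5 with no limit and 0 with DESeq2 or with at least 10 counts in every library, and ranged from 0 to 1 over fits without 1 library. Of the values for single genes, 562 were unchanged, 7 newly passed the limits and 7 no longer did. Unchanged means the same direction and side of the limits. For DHRS3 values with no test it means the same direction and a shift under 0.338, its largest replicate SD. The DHRS3 rise with H196 ranged from 1.68 to 2.15 over settings with all libraries, and at 1.68 it had moved by more than that. The cause of the FPKM and DESeq2 differences was not tested.

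Replicate numbers did not pair the samples: deviations of libraries sharing a number correlated at -0.12 to 0.08 in MRC5 cells and -0.15 to 0.03 in H196 cells. With a replicate block the counts with H196 were 5 members and 13 pathway genes, with H69 0 and 2, between co-cultures 4 and 12, and in H196 cells 2 and 1, as without it.

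Genes under about 10 counts per library, such as STRA6, RARB and CYP26B1 in fibroblasts, lie at the limit of this depth.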

Other observations

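A cellular retinol-binding protein and retinol esterification, named here after their values were seen, were higher in H196 cells than in fibroblasts. RBP7 had 15, 21 and 15 counts in H196_Mo against 1, 0 and 0 in MRC5_Mo, a ratio of summed counts per library total of 56.4 with an exact 95% counting interval of 9.68 to 2271. LRAT, the enzyme that esterifies retinol, had 9, 15 and 13 counts in H196_Mo and 0 in every MRC5_Mo library, so that its lowest H196_Mo library was at least 3.46-fold higher than the 3 counts that a 0 allows per MRC5_Mo library.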
